A study of Mus musculus with 12 samples.

Results

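The genes described here are the type I interferon response genes of mouse brain perivascular macrophages, the macrophages that sit along the blood vessels of the brain. They were chosen by name from a list of 34 interferon-stimulated genes, their transcription factors and the receptor chains. Of these, 33 of the 17358 genes in the deposited table carried one of the names, and all 33 passed the filter on low counts that left 9550 genes for testing. Mx1 was not analysed here. The study compared aged mice (18 months, 5 libraries) with young adults (3 months, 7 libraries) of a C57BL background. The samples are labelled as brain perivascular macrophages in both groups, with no treatment, sex, sort marker or batch given. The SMART-seq2 libraries, in which whole transcripts are copied from oligo-dT and amplified from very little RNA, carry neither molecular identifiers nor strand. The protocol speaks of single-cell lysis and the design of biological replicates, but how many cells or animals each library holds is not stated, so a p-value here speaks of the spread from library to library. In such samples fewer cells of a type and less RNA per cell cannot be told apart.

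As background, type I interferons bind a receptor of the chains IFNAR1 and IFNAR2, whose kinases phosphorylate STAT2. STAT2 and IRF9 are parts of the complex ISGF3, which binds the interferon-stimulated response element (ISRE) in promoters and switches on antiviral genes. Some of the products feed back: IRF7 raises interferon production, and USP18 blocks signalling at the receptor. In the brain, an interferon response is a known feature of microglia and border macrophages in infection, neurodegeneration and ageing.

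The response element is shown first because it links the receptor to the genes measured. Promoters (250 bases before to 50 after the start, RefSeq, GRCm38.p6) were matched for 26 of the 34 genes. The ISRE core was searched as GAAA, any 2 bases, then GAAA, and on the other strand as TTTC, any 2 bases, then TTTC, overlapping matches included. It was present in 14 of the 26 (53.8%) and in 3.99% of all 27025 genes with a promoter of that length, as a description of genes that were chosen for their known response. The 14 were Bst2, Ddx58, Ifi207, Ifih1, Ifit1, Ifit3, Ifit3b, Ifitm2, Ifitm3, Isg15, Oas1a, Rsad2, Stat2 and Trim30a, and 7 of them held more than 1 match. The STAT motif TTCNNNGAA (GAS), which reads the same on both strands, was present in 9 of the 26 (34.6%) and in 9.55% of all genes. Both motifs overlapped each other in Bst2 and Ifitm3.

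Below, 8 upstream windows are given 5′ to 3′ on the strand of the gene, with the ISRE core matches in capitals. They cover the IFIT cluster of chromosome 19, which holds the near-identical copies Ifit3 and Ifit3b, 3 promoters with overlapping matches (Isg15, Oas1a and Bst2), the sensor gene Ifi207 and the factor gene Stat2.
Ifit1, chr19:34640749-34640848, plus strand: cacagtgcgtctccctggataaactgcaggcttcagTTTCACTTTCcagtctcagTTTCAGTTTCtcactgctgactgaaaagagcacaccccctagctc
Ifit3, chr19:34583337-34583436, plus strand: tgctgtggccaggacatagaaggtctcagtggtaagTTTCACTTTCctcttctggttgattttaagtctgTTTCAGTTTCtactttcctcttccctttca
Ifit3b, chr19:34607733-34607832, plus strand: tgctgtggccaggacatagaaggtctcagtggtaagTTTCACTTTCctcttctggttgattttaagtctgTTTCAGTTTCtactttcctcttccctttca
Isg15, chr4:156200819-156200918, minus strand: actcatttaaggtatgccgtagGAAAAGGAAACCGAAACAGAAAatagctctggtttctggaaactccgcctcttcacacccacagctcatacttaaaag
Oas1a, chr5:120907526-120907585, minus strand: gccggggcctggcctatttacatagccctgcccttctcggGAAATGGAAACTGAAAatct
Bst2, chr8:71537563-71537632, minus strand: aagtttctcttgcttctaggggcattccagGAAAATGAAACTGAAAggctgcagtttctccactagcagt
Ifi207, chr1:173741810-173741889, minus strand: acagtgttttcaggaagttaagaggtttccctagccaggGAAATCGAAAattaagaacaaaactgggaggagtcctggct
Stat2, chr10:128270248-128270317, plus strand: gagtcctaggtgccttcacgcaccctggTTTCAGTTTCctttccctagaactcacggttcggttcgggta
The Ifit3 and Ifit3b windows of 100 bases had 0 mismatches. The paired matches of Ifit1 carry the same letters as those of Ifit3, at a closer spacing.

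Library totals ranged from 23214816 to 30628789 estimated counts, and a floor of 3 counts corresponded to 0.098 to 0.129 CPM (counts scaled to library size, counting error only). The 12 perivascular macrophage markers summed to 11617 to 17922 normalised CPM in aged and 12553 to 21858 in young libraries. Their levels were unlike: over all libraries Pf4, with the highest group means, was at 2349 to 8298, and Siglec1, with the lowest, at 0 to 74.3. The 10 microglia markers also summed to 4078 to 6128 in aged and 4080 to 7503 in young libraries, with Gpr34 and P2ry12 among the high ones, whereas Tmem119 and Sall1 were at group means of at most 25.5. The 6 monocyte markers summed to at most 75.4, the 6 neutrophil markers to at most 48.5 and the T and NK cell markers to at most 39.8. Markers of plasmacytoid dendritic cells, known as strong interferon producers, were near 0 except Tcf4, which other cells also express. Choroid plexus markers summed to between 199.6 and 1110.0 in aged and between 59.4 and 147 in the young group. Their transthyretin gene Ttr (595 ± 376 against 93.0 ± 34.8) was the 1 gene that passed among all tested. The part of these cell types in the results was not tested. On the first principal component of all tested genes, aged libraries 1, 3 and 4 had scores from 76.1 to 104.8 and the other 9 libraries from −47.6 to −10.8 (15.5% of the variance).

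The interferon response genes covered a wide range of levels, and the membrane effectors led it. Compared per transcript length as FPKM, over 12 libraries, Ifitm2 had the highest median (2523), followed by Ifitm3 (1888) and Ifi27l2a (1406). Ifitm2 and Ifitm3 encode membrane proteins that hinder the fusion of viruses with the cell, and Ifi27l2a encodes a small membrane protein induced by interferon. The next gene, Rtp4, which encodes a receptor transporter protein, had a median of 208 FPKM. The step from Ifi27l2a to Rtp4 was the 1 place among the 32 neighbouring pairs in this order where the ranges of the 12 libraries did not overlap. A median of at least 100 FPKM was found for 8 genes, and one under 10 for 9. At the low end, Isg15, which encodes a ubiquitin-like modifier of the interferon response, had a median of 0.335 FPKM.

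**Figure D1:**
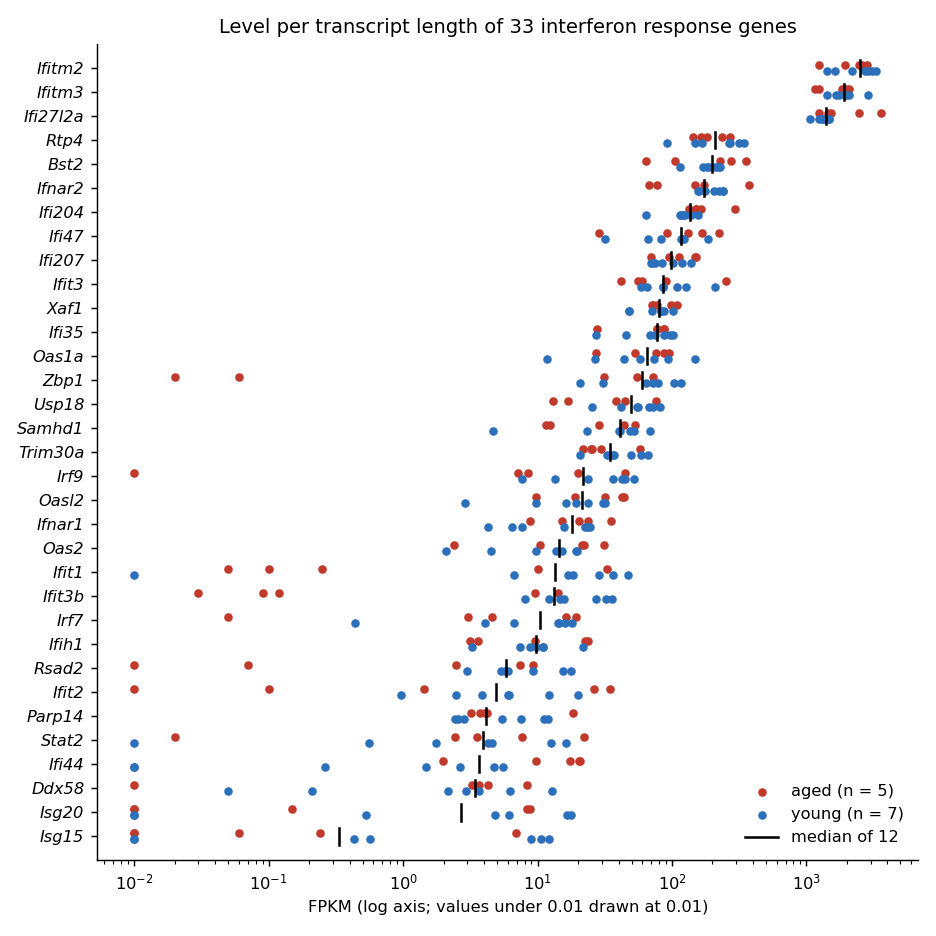
FPKM of each of the 33 genes in the 12 libraries on a log axis (red points aged, blue points young, black tick the median), ordered by median. Ifitm2, Ifitm3 and Ifi27l2a lie apart from the rest at medians of 1406 to 2523, and libraries listed at 0 are drawn at the left edge.

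Together Ifitm2, Ifitm3 and Ifi27l2a made up between 42.6% and 54.0% of the summed normalised CPM of the 33 genes in aged libraries and between 43.8% and 54.6% in young ones. The summed level itself was between 5764 and 7472 in aged and between 4347 and 7547 normalised CPM in young libraries, so the aged range lay within the young one. Near-identical genes can share reads in such counts. Of the 50-base words in its longest GENCODE M21 transcript, Ifitm2 had 48.5% in transcripts of other genes (36.1% in Gm45717). The shares were 57.6% for Oas1a (Oas1g), 51.2% for Ifit3 (Ifit3b), 45.0% for Ifit3b and 30.2% for Ifi204 (23.2% in Ifi211). The levels of these genes are therefore uncertain.

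None of the 33 genes passed the test between aged and young libraries. With edgeR's quasi-likelihood test and Benjamini-Hochberg adjustment over all genes tested, the smallest adjusted p was 0.321, where 0.0105% of all tested genes passed. DESeq2, which called 1.3% of its 9316 genes, edgeR with legacy=FALSE, which called 0.398%, and limma with voom weights also called 0 of the 33. Without aged library 2, 0.755% of genes and again 0 of the 33 passed. At an unadjusted p under 0.05 there were 3, all higher in aged libraries (Ifi27l2a, Ifi204 and Ifi44), a share of 9.09% where 5.97% of all tested genes reached that level (3.85% higher and 2.12% lower). Of the 33 log2 fold changes 17 were positive and 16 negative (49.5% of all tested genes were positive), with a median of 0.06 beside −0.01 over all tested genes. Standard errors ran from 0.21 to 2.08 on the log2 scale (median 0.53).

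**Figure D2:**
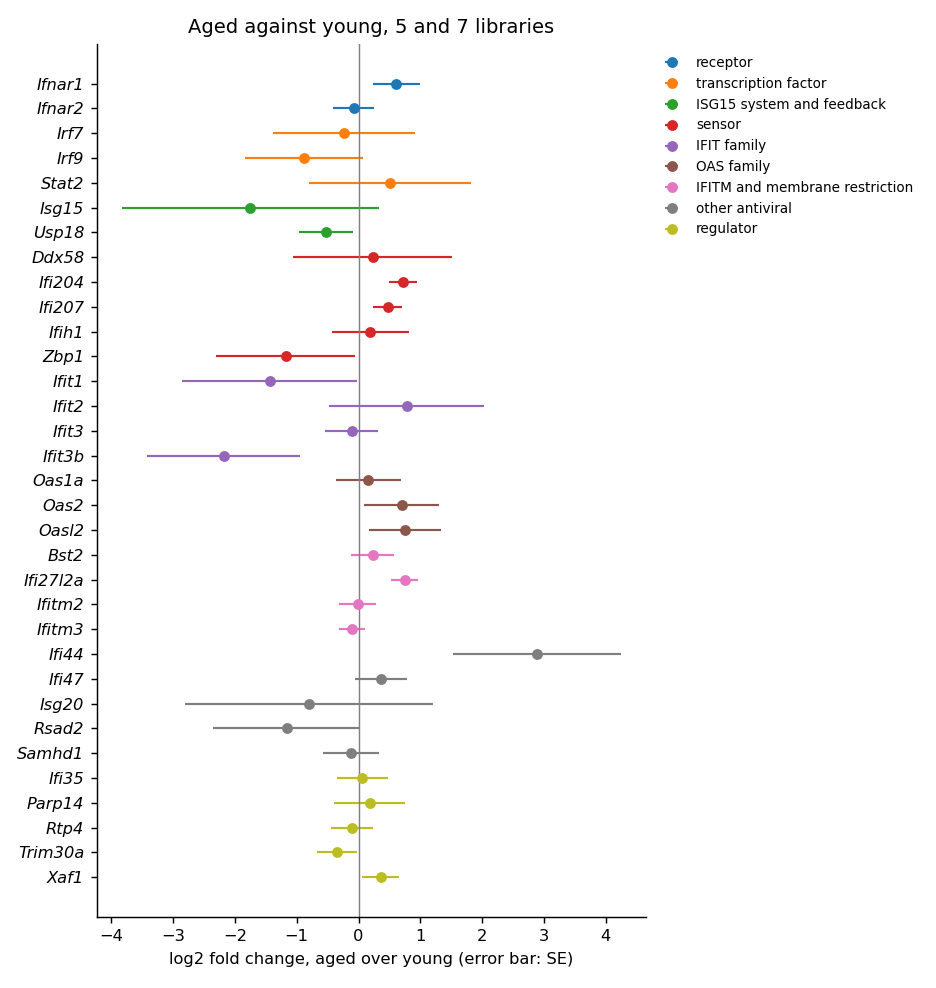
Log2 fold change of each gene, aged over young libraries (point), with its standard error (bar), grouped by role. Points lie on both sides of 0, 17 to the right and 16 to the left, and the bars are widest for genes of low level such as Isg15 and Isg20.

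The receptor chains were expressed in every library. Ifnar1 was at 151, 135, 122, 69.7 and 175 normalised CPM in aged libraries 1 to 5, and at 33.4, 56.6, 134, 119, 104, 43.0 and 108 in young libraries 1 to 7. Aged libraries 1, 2 and 5 lay above the whole young group, young libraries 1, 2 and 6 lay below the whole aged group, and the rest overlapped. The difference of 0.61 ± 0.38 (SE) on the log2 scale did not pass (adjusted p = 0.999, edgeR's quasi-likelihood test). Ifnar2 was at 457, 225, 104, 211 and 90 normalised CPM in aged and at 204, 196, 236, 200, 249.6, 279.5 and 249.8 in the young group. Its young libraries were close together (CV 13.7%), whereas aged library 1 lay above and aged libraries 3 and 5 below all of them (CV 67.6% in aged). The log2 fold change of −0.08 ± 0.33 was −0.57 without aged library 1 and turned to 0.07 without aged library 3 and to 0.09 without aged library 5.

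The factors downstream of the receptor were low and uneven. Irf9, the DNA-binding part of ISGF3, was at 0, 106, 22.9, 19.1 and 41.0 normalised CPM in aged and at 19.7, 33.8, 82.1, 43.8, 85.7, 102 and 119.8 in young libraries. Aged library 1 held no count of it, aged library 4 also lay just below the lowest young library, and the other 3 aged libraries lay within the young range. Its log2 fold change was −0.88 ± 0.95, and ran from −1.74 without aged library 2 to 0.08 without aged libraries 1, 3 and 4. The latter setting, also used below, keeps only aged libraries 2 and 5.
Stat2, the ISGF3 subunit that carries the transactivating domain, was at 11.2, 33.9, 112, 0.0958 and 13.5 normalised CPM in aged and at 0, 75.2, 17.9, 1.97, 46.4, 7.45 and 19.2 in young libraries. Its log2 fold change of 0.51 ± 1.31 rested on aged library 3 and was −0.71 without it.
Irf7, which amplifies interferon production, was at 8.33, 28.2, 6.06, 0.0958 and 30.6 in aged and at 30.3, 0.785, 23.1, 24.6, 5.84, 25.6 and 11.3 normalised CPM in the young group. The groups covered the same range, with 1 library under 1 CPM in each, and the log2 fold change was −0.24 ± 1.15 (0.75 with aged libraries 1, 3 and 4 left out). Among 9 partner genes (receptor kinases, other STAT and IRF factors), 4 log2 fold changes were positive and 5 negative. None had an unadjusted p under 0.05, a level that 5.97% of all tested genes reached.

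Interferons themselves were close to undetected. Of 20 interferon ligand genes, 8 were in the table and none passed the filter. Ifnz had 58 counts over all libraries, the gamma interferon gene Ifng had 5, and the 6 others had 1 each. The summed level of the 8 did not exceed 0.2 normalised CPM in any aged library or 1.85 in any young one.

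Among the sensor genes, Ifi204 encodes a DNA-binding protein of the PYHIN family. It was at 325, 349, 438, 403 and 591 normalised CPM in aged libraries, and at 163, 281, 264, 285, 242, 307 and 254 in young ones. The lowest aged library exceeded the highest young one. Such separation was found for 0.325% of all tested genes with aged above and 0.272% with aged below, and for none of the other 32 interferon response genes. The mean was 421 ± 105 (SD, n = 5) against 257 ± 46.3 (SD, n = 7), a log2 fold change of 0.72 ± 0.22 (1.64-fold) with an adjusted p of 0.352 by edgeR's quasi-likelihood test. As FPKM the groups overlapped, and so did the summed level of Ifi204 and Ifi211, which share sequence (459 to 771 in aged and 322 to 548 in young libraries, a sum chosen after the values were seen). Ifi204 lies on chromosome 1 from 173747293 to 173767069 of GRCm38.

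Its neighbour Ifi207 was at 356, 526, 616, 282 and 348 normalised CPM in aged and at 331, 255, 336, 381, 349, 258 and 245 in young libraries. Aged libraries 2 and 3 exceeded the young range and the other 3 lay within it (log2 fold change 0.47 ± 0.23, adjusted p of 0.858 by edgeR, and 0.28 on the log2 scale without aged library 3). Both genes sit in a cluster of PYHIN genes on chromosome 1. Of the 9 PYHIN genes of the lists used, grouped here after their values were seen, 7 had positive log2 fold changes and 2 negative. The negative ones were Ifi205 (−1.22 ± 1.61) and Ifi206 (−0.07 ± 0.45). Beside Ifi204 and Ifi207 the largest positive ones belonged to Ifi209 (209.6 ± 136 in aged and 115 ± 32.0 normalised CPM in young libraries) and Ifi213 (255 ± 68.9 against 151 ± 35.8), and neither passed (adjusted p of 0.825 and 0.431 by edgeR). Of their 50-base words, Ifi211 had 72.9%, Ifi209 35.1% and Ifi213 5.0% in other genes, so the 9 directions may not be independent. Of the 12 perivascular macrophage markers, 8 had positive and 4 negative log2 fold changes (median 0.14). Among the positive ones, the scavenger receptor Cd163 was at 477 ± 64.2 in aged and 310.2 ± 72.2 in young libraries. Among the negative ones, Stab1 was at 385 ± 50.6 against 513 ± 109. The part of these markers in the PYHIN values was not tested.

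In the other sensors the groups overlapped. Zbp1, which senses nucleic acids of the Z form and can start necroptosis, was at 0.0479 to 46.2 normalised CPM in aged and 14 to 89.1 in young libraries, with aged libraries 3 and 4 under 1 CPM. Its log2 fold change was −1.18 ± 1.12. The cytoplasmic RNA sensors Ifih1 (MDA5) and Ddx58 (RIG-I) were at 45.4 ± 37.0 against 39.7 ± 21.1 and at 20.3 ± 17.1 against 17.3 ± 17.3 normalised CPM, aged against young. Among 15 other genes of nucleic acid sensing and clearance, 13 were tested, 6 positive and 7 negative. The kinase Tbk1 (97.1 ± 46.8 against 51.0 ± 16.8) and the lysosomal nuclease Dnase2a (24.4 ± 18.2 against 83.1 ± 58.7) had an unadjusted p under 0.05 in opposite directions, and neither passed adjusted over all genes. At that unadjusted level 3.85% of all tested genes were higher and 2.12% lower in aged libraries.

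Among the effectors, Ifi27l2a had the smallest p of the 33 genes. It was at 1076, 572, 757, 607 and 1258 normalised CPM in aged and at 590.4, 623, 471, 462, 471, 510.2 and 418 in young libraries. Aged libraries 1, 3 and 5 exceeded the young range, and aged libraries 2 and 4 overlapped with young libraries 1 and 2. All 5 aged libraries were above the young median. The log2 fold change was 0.75 ± 0.22 (1.69-fold) with an adjusted p of 0.321 by edgeR's quasi-likelihood test, and 0.0822 without aged library 2. Leaving out aged library 1, 3, 4 or 5 instead gave an adjusted p of 0.608, 0.597, 0.529 or 0.471 by the same test. With aged libraries 1, 3 and 4 left out the log2 fold change came to 0.84. Ifi27l2a lies on chromosome 12 from 103433873 to 103443680. The more abundant Ifitm3 (1026 ± 201 against 1104 ± 305) and Ifitm2 (1361 ± 436 against 1372 ± 535) and the tetherin gene Bst2 (150.3 ± 85.0 against 128 ± 31.7), whose product holds budding virus at the membrane, had overlapping groups and log2 fold changes between −0.11 and 0.23.

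Ifi44, an interferon-induced gene of the cytoplasm, had the largest positive log2 fold change of the 33. It was at 62.9, 60.5, 6.41, 31.2 and 42.2 normalised CPM in aged and at 0, 7.82, 15.3, 10.4, 0, 0.718 and 3.98 in young libraries. Aged libraries 1, 2, 4 and 5 exceeded the young range, and aged library 3 was within it. The mean was 40.6 ± 23.2 (SD, n = 5) against 5.46 ± 5.93 (SD, n = 7), a log2 fold change of 2.89 ± 1.36 with an adjusted p of 0.825 by edgeR. With the bias-adjusted estimation of edgeR (legacy=FALSE) the adjusted p was 0.0531, the smallest that any of these genes had under any of the 21 alternatives.

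**Figure D3:**
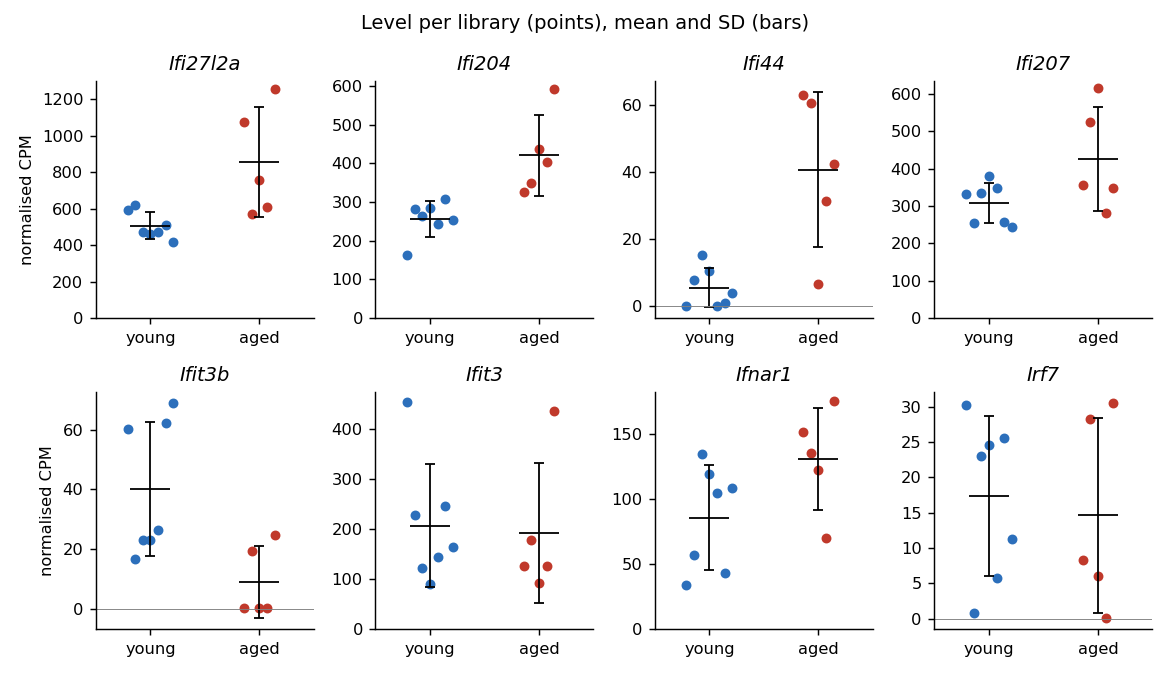
Normalised CPM per library (points) with mean and SD (bars) for 8 genes, young (n = 7) beside aged (n = 5), each panel on its own linear axis. The groups are separate for Ifi204 (325 and above in aged, 307 and below in young libraries) and overlap in the other 7 panels.

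The IFIT family, which binds viral RNA and limits its translation, includes the copies Ifit3 and Ifit3b, at medians of 85.8 and 13.2 FPKM. Ifit3 was at 126, 177, 92.7, 126 and 436 normalised CPM in aged and at 454, 227, 121, 89.3, 143, 245 and 164 in young libraries, with a log2 fold change of −0.11 ± 0.43. Ifit3b was at 0.241, 19.2, 0.05, 0.192 and 24.7 in aged and at 60.3, 16.8, 23, 23, 26.5, 62.3 and 69.2 in young libraries. Aged libraries 1, 3 and 4 were under 1 CPM, and aged libraries 2 and 5 lay at the low end of the young range.
The log2 fold change of Ifit3b was −2.18 ± 1.24 (adjusted p of 0.99 by edgeR), and −0.88 without aged libraries 1, 3 and 4. Ifit3b made up between 0.0539% and 9.78% of the summed level of the pair in aged and between 6.90% and 29.6% in the young group. The sum itself was between 92.8 and 461 normalised CPM in aged and between 112 and 514 in the young group. The pair shares its promoter window (above) and 51.2% of the 50-base words of Ifit3, and how reads were divided between the copies was not tested.

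Ifit1 and Ifit2 varied widely between libraries of each age. Ifit1 ranged from 0.135 to 75.1 normalised CPM in aged libraries, 3 of them under 1, and from 0 to 130.2 in young ones, 1 of them under 1, with medians of 0.751 and 49.3. Ifit2 ranged from 0 to 142 in aged and from 3.53 to 80.8 in young libraries. Their log2 fold changes were −1.44 ± 1.42 and 0.78 ± 1.25.

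The OAS family makes short oligoadenylates that activate RNase L, and its 3 genes among the 33 had positive log2 fold changes. Of 4 further tested genes of the family, Oas3 was positive (0.81 ± 1.24) and Oas1g (−0.51 ± 1.24), Oas1c (−1.42 ± 2.08) and Oasl1 (−4.05 ± 2.35) were negative. Oasl2, a catalytically active member, was at 20.8, 81.1, 99.0, 44.0 and 89.7 normalised CPM in aged and at 21.7, 76.9, 42.1, 37.4, 32.3, 5.64 and 62.1 in young libraries. Aged libraries 2, 3 and 5 exceeded the young range and the other 2 lay within it (log2 fold change 0.75 ± 0.58). Oas2 was at 42.6, 123, 99.0, 10.6 and 72.1 in aged and at 84.7, 18.4, 35.6, 42.3, 61.6, 48.9 and 7.80 in young libraries, a log2 fold change of 0.70 ± 0.61 (0.39 without aged library 2). Oas1a was at 108 ± 42.1 against 96.3 ± 75.5. None of the 7 passed, with an adjusted p of 0.999 for each by edgeR.

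The remaining effectors included Rsad2 (viperin, an antiviral radical SAM enzyme), at 14 ± 14.7 in aged and 31.3 ± 18.8 normalised CPM in young libraries, with aged libraries 1 and 4 under 1. The dNTP hydrolase Samhd1 was at 112 ± 57.7 against 122 ± 49.9 and the immunity-related GTPase Ifi47 at 218 ± 107 against 169.8 ± 86.1. The exonuclease gene Isg20 was under 15 CPM in all libraries and under 1 in 3 of each group.

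Isg15 and Usp18, the modifier and the enzyme that removes it, lay far apart in level. Isg15 was at 0, 4.79, 0.2, 0.0479 and 0 normalised CPM in aged and at 9.40, 7.75, 0, 0.312, 0.254, 0 and 6.09 in young libraries. It was under 1 CPM in 8 of 12 libraries, although its promoter holds 3 overlapping ISRE cores, the most of the 26. Usp18 was at 70.4, 132, 33.9, 26.2 and 68.0 in aged and at 129, 99.9, 134, 76.7, 37.3, 121 and 71.0 in young libraries. Its groups overlapped, with aged libraries 3 and 4 lowest (log2 fold change −0.53 ± 0.44, moving to −0.94 without aged library 2 and to 0.07 without aged libraries 1, 3 and 4).

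Of the regulators, Xaf1, an antagonist of the apoptosis inhibitor XIAP, was at 243, 176, 222, 315 and 147 normalised CPM in aged and at 277, 218, 149, 95.0, 101, 183 and 183 in young libraries, with 1 aged library above all young ones (log2 fold change 0.36 ± 0.30, and −0.09 without aged libraries 1, 3 and 4). Rtp4 (323 ± 91.4 against 348 ± 166), Trim30a (123 ± 40.2 against 156 ± 59.8), Parp14, an ADP-ribosyltransferase (47.7 ± 39.1 against 42.0 ± 23.2), and Ifi35 (97.0 ± 33.1 against 93.2 ± 42.1) had log2 fold changes between −0.35 and 0.18.

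The spread between libraries was wide. The coefficient of variation (SD over mean) had a median of 63.3% over the 33 genes in aged and 53.8% in young libraries. It was larger in aged libraries for 21 genes (63.6%), beside 64.2% of all tested genes. In 21 genes all 12 libraries were at 1 CPM or more, and 12 genes were under 1 CPM in at least 1 library. Aged libraries 3 and 4 had 7 and 8 such genes and aged library 1 had 4, where the other 9 libraries had between 0 and 4. Over all tested genes the share under 1 CPM was 28.1%, 26.4% and 28.5% in aged libraries 1, 3 and 4 and between 9.85% and 27.0% in the others. The mean of log2(normalised CPM + 1) over the 33 genes was 5.24 and 5.10 in aged libraries 3 and 4 and between 5.72 and 6.48 in the other 10.

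**Figure D4:**
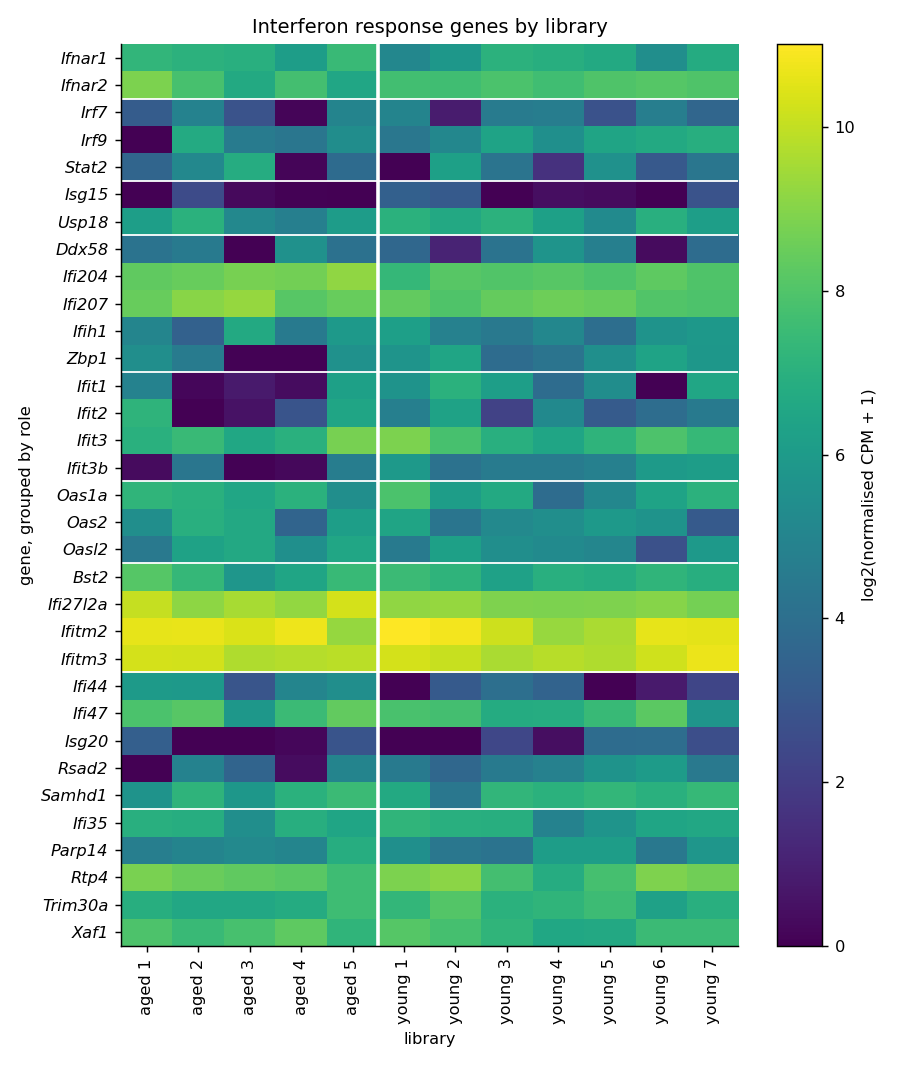
Log2(normalised CPM + 1) of the 33 genes (rows, grouped by role and divided by thin lines) in 12 libraries (columns, aged left of the thick line). Dark cells mark low values, which are most frequent in aged libraries 3 and 4, where 7 and 8 genes were under 1 CPM.

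After removal of the age group means, the median pairwise Pearson r over the 12 libraries was 0.04 among the 528 pairs of the 33 genes and 0.01 among all pairs of tested genes, and 11.0% against 7.26% of pairs had r above 0.5. All pairs share the same libraries and depth. Across the 12 libraries the tested genes whose log2(normalised CPM + 1) was most like the mean standardised level of the 33 were Fam8a1 (r = 0.89), Mfsd11 (0.88), Slc25a51 (0.86), Uqcc3 (0.85) and Tmem11 (0.85). They are the highest of 9517 genes compared, and are given as a description.

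Genes of the response outside the 33 were counted as well. Of 62 other interferon-stimulated genes, 57 were in the table and 50 tested, 27 positive and 23 negative (median log2 fold change 0.15), and none passed. At an unadjusted p under 0.05, 5 were higher (Ms4a4c, Ifi213, Pnpt1, Slfn5 and Ifi209) and 1 lower (Ifi30), beside 3.85% and 2.12% of all tested genes, all named after their values were seen. Ms4a4c, of a family of membrane proteins, was at 229 ± 97.8 (SD, n = 5) in aged and 68.2 ± 38.1 normalised CPM (SD, n = 7) in the young group (log2 fold change 1.75 ± 0.41, adjusted p of 0.197 by edgeR). Pnpt1, a mitochondrial RNA exonuclease, was at 60.0 ± 44.1 against 17.9 ± 8.87. Of 17 genes associated with interferon gamma, 13 were tested, 8 positive and 5 negative. At an unadjusted p under 0.05 there was 1, higher in aged libraries, the receptor chain Ifngr2. It was at 291 ± 95.1 against 200.3 ± 24.8 (adjusted p of 0.774 by edgeR). Of 6 negative regulators such as the SOCS proteins, 1 was positive and 5 negative, with none at an unadjusted p under 0.05. Of all tested genes, 5.97% reached that level.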

How the data were processed

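Perivascular macrophage libraries (5 aged, 7 young) were grouped by their titles. The authors deposited estimated counts and, without naming the unit, normalised values that scale as FPKM (value over count times library total was within 0.979 to 1.009 of its mean over 2268 genes). Per the submitters' processing notes, which give no order, the tools were RSEM 1.2.12, DESeq2 1.4.5, HISAT2 2.0.4 and Bowtie2 2.2.5, with build GRCm38. No source used here names a gene annotation. Counts (88.2% to 90.6% whole) were rounded.

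All 9550 genes passing filterByExpr were fitted with edgeR 4.0.16 (R 4.3.3, quasi-likelihood, robust, legacy estimation, TMM factors), with Benjamini-Hochberg adjusted p under 0.05 as threshold and positive log2 fold changes higher in aged libraries. SE is the log2 fold change over the root of F. Normalised CPM are counts divided by the TMM-scaled library total. Alternatives used DESeq2 1.42.0 and limma 3.58.1, other factors and filters, and fewer libraries. The test was run on simulated data first. The genes and lists were chosen with earlier results of these data known. Libraries' values were given for the 10 smallest p, genes without overlap, receptors and factors, and, chosen after their values were seen, for Ifit3, Isg15 and Siglec1. Coordinates are RefSeq GRCm38.p6, 1-based. Entrez identifiers (17244 of 17358 matched) gave 23 symbols anew. Chi-square per gene was at least 241 for each pair of libraries, so none was a repeat deposit. Items withheld for evaluation are not reported here.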

Additional observations from a re-analysis of the deposited data

Results flagged for a closer look

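Within an age group, 1 library stood far from the others for 6 of the 66 combinations of gene and group examined on normalised CPM (Dixon's test, which flags about 1 group in 20 by chance). Aged library 5 was high for Ifit3 (436), Trim30a (192) and Parp14 (117), and aged library 2 for Isg15 (4.79). Young library 1 was high for Ifit3 (454), and young library 2 was low for Samhd1 (19.6).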

How the results depend on the processing

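None of the 33 genes passed under any of the 21 alternatives, and the log2 fold changes of Ifi27l2a (0.52 to 0.87), Ifi204 (0.53 to 0.86), Ifi44 (2.36 to 5.13), Ifi207, Ifnar1, Oasl2 and Oas2 stayed positive and that of Ifit3b (−5.34 to −0.88) negative in all of them. Over all tested genes the count past the threshold was 1, and 121 with DESeq2, 38 with edgeR legacy=FALSE, 13 without a filter, 6 and 0 with limma on log2(FPKM + 1) and log2(FPKM + 0.1), 2 with voom, 0 without aged libraries 1, 3 and 4, and 0 to 75 on leaving out 1 library (75 without aged library 2). The cause was not tested. Directions turned for Usp18 (0.07), Xaf1 (−0.09), Irf7 (0.75), Irf9 (0.08) and Stat2 (−0.01) without aged libraries 1, 3 and 4. That setting leaves out the libraries that stood apart on the first principal component of these same data. It keeps only aged libraries 2 and 5, so its values rest on few libraries. Directions also turned without aged library 3 for Ifnar2 (0.07) and Stat2 (−0.71), without aged library 5 for Ifnar2 (0.09) and without aged library 4 for Irf7 (0.07). On leaving out 1 library the log2 fold changes ran from −0.57 to 0.09 for Ifnar2, from −0.70 to 0.07 for Irf7 and from −0.71 to 1.11 for Stat2. Irf9 was at −1.74 without aged library 2 and −2.76 with voom. With the replicate number as a block, 1 gene passed, none of the 33, and Stat2 turned to −0.10. Deviations of same-numbered libraries correlated between −0.041 and 0.094, and 0 of 5 aged libraries correlated best with their own number. The labels do not say whether a shared number means a pairing, and correlations this low could miss a weak one. The median of all tested genes shifted to −0.25, −0.17, −0.16 and −0.13 with log2(FPKM + 0.1), log2(FPKM + 1), the block and voom. Isg15 was not tested without young library 1, 2, 4 or 7. Isg15 was under the floor of 3 counts in aged libraries 1, 4 and 5 and in young libraries 3 and 6. Values under that floor are uncertain, and their cause was not tested.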

Other observations

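Siglec1, the sialic acid receptor of macrophages known to be induced by interferon, was among the perivascular macrophage markers and not among the 33 genes. It was at 70.6, 59.1, 34, 68.3 and 74.3 normalised CPM in aged and at 1.55, 6.60, 11.1, 46.4, 41.7, 15.2 and 0 in young libraries. Aged libraries 1, 2, 4 and 5 exceeded the young range and aged library 3 lay within it, as for Ifi44, and the log2 fold change of 1.81 ± 1.02 did not pass (adjusted p of 0.989 by edgeR's quasi-likelihood test). Siglec1 is named after its values were seen. Of the 12 perivascular macrophage markers, 8 log2 fold changes were positive and 4 negative. Of the 50 other interferon-stimulated genes tested, 27 were positive and 23 negative.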
